A study of Homo sapiens with 8 samples.

Results

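Oxidative stress and NRF2 target genes were examined in HEK293, a cell line of human embryonic kidney origin, 48 hours after a tRNA-derived small RNA (tDR) was introduced. The group holds 39 genes listed by symbol: regulators of the transcription factor NRF2, and genes for heme breakdown, iron storage, glutathione, thioredoxin, peroxide and superoxide removal and the supply of NADPH. All 39 were among the 60606 genes of the count table. In the tDR group the cells were given a synthetic RNA that mimics tRNA-Asp-GTC-3'tDR, a fragment from the 3' side of that tRNA, and in the control group a scrambled mimic. Both groups were given 50 nM of mimic with Lipofectamine RNAiMax, a lipid reagent, and were collected 48 hours later, and each group held 4 libraries. The series title calls the small RNA hypoxia-responsive, and the design compares the RNA of the tDR group with that of the scramble group. A single line was used, and whether each library is its own culture is not in the labels, so the p-values reflect only how these 8 libraries spread, which may be technical.

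NRF2, encoded by NFE2L2, is held in the cytoplasm and sent for degradation by KEAP1, a sensor whose cysteines react with oxidants. When KEAP1 is modified, NRF2 enters the nucleus, pairs with a small MAF protein and binds antioxidant response elements in genes for detoxification, glutathione and thioredoxin. BACH1 competes for the same elements and is released from DNA by heme. Peroxides are reduced by peroxiredoxins and glutathione peroxidases, whose reducing power comes from NADPH made in the pentose phosphate pathway and by malic enzyme.

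Within this group the heme oxygenase gene HMOX1 and the ferritin light chain gene FTL rose in cells given the tDR, by 0.66 and 0.41 on the log2 scale. Several genes for the removal of superoxide and peroxide and for the NADPH supply fell by smaller amounts, with TXN (-0.39), TKT (-0.33), PRDX4 (-0.28), PRDX5 (-0.27) and SOD1 (-0.26) at the far end. Among known NRF2 targets, NQO1, GCLC, GCLM, TXNRD1 and ABCC1 did not pass the test in either direction. Other known targets were called, such as HMOX1 and FTL (higher) and GSR, TXN, PGD, TKT and TALDO1 (lower). For NQO1 the SE was 0.238, so a change of the size seen for FTL was not detectable in it. A gene was called when edgeR's quasi-likelihood test, adjusted over all genes by Benjamini-Hochberg, gave p under 0.05. Of the 39 genes 36 were tested, of which 2 rose, 13 fell and 21 did not pass. Over all 17184 genes tested, 12.8% were called higher, 11.4% lower and 24.3% in either direction. Abundant genes were lower more often. Among the 10437 genes with a mean of at least 10 CPM, a count scaled to a common library size, 9.34% were called higher and 18.3% lower, with 27.7% in either direction. Of the 36 tested members 35 lie in that range, and 37.1% of the 35 were lower. That range has only a floor, and members were not matched to other genes of their own level above it. The members were also chosen with earlier results of these data known. The median log2 fold change was -0.11 over the tested members, 0.02 over all tested genes and -0.05 over genes with at least 10 CPM. In 2 members each tDR library lay above each control library and in 11 members each lay below; over all tested genes the shares were 11.8% and 10.8%, and over those with at least 10 CPM 8.36% and 17.1%.

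The count of lower members rests on the scaling of the libraries. With library size alone in place of TMM factors 5 members were called higher and 5 lower, and over all genes 3295 were higher and 907 lower where TMM gave 2206 and 1962. With estimated background subtracted 2 were higher and 6 lower. Among the members whose lower call then ended, the estimated background ran from 0.02% of counts (GPX4) to 4.12% (NFE2L2). TMM factors were computed anew on the subtracted counts. FTL, with 0.04% background, moved from 0.41 to 0.465 on the log2 scale. The part of the new scaling in the lost calls was not tested. The members HMOX1, FTL, TXN, TKT, PRDX4, PRDX5 and SOD1 kept their call and direction under each of the 17 alternatives tried.

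**Figure D1:**
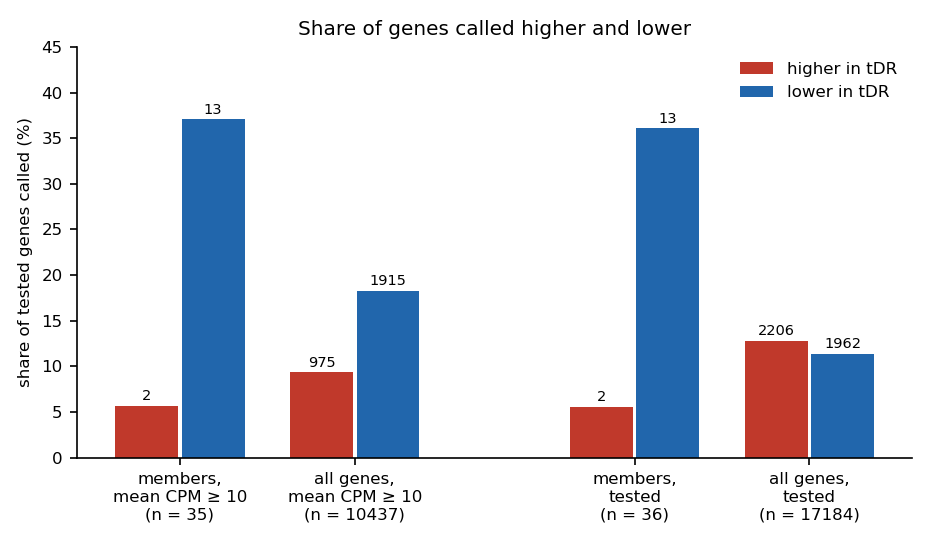
Share of tested genes called higher (red) or lower (blue) in tDR over control libraries (y axis, percent), with the number of called genes above each bar; members are set beside all genes, once for genes with a mean of at least 10 CPM and once for all tested genes. With at least 10 CPM, lower calls make up 37.1% of members and 18.3% of all genes, and higher calls 5.71% and 9.34%. The 10 CPM is a floor only, and members and all genes were not matched in level above it.

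**Figure D2:**
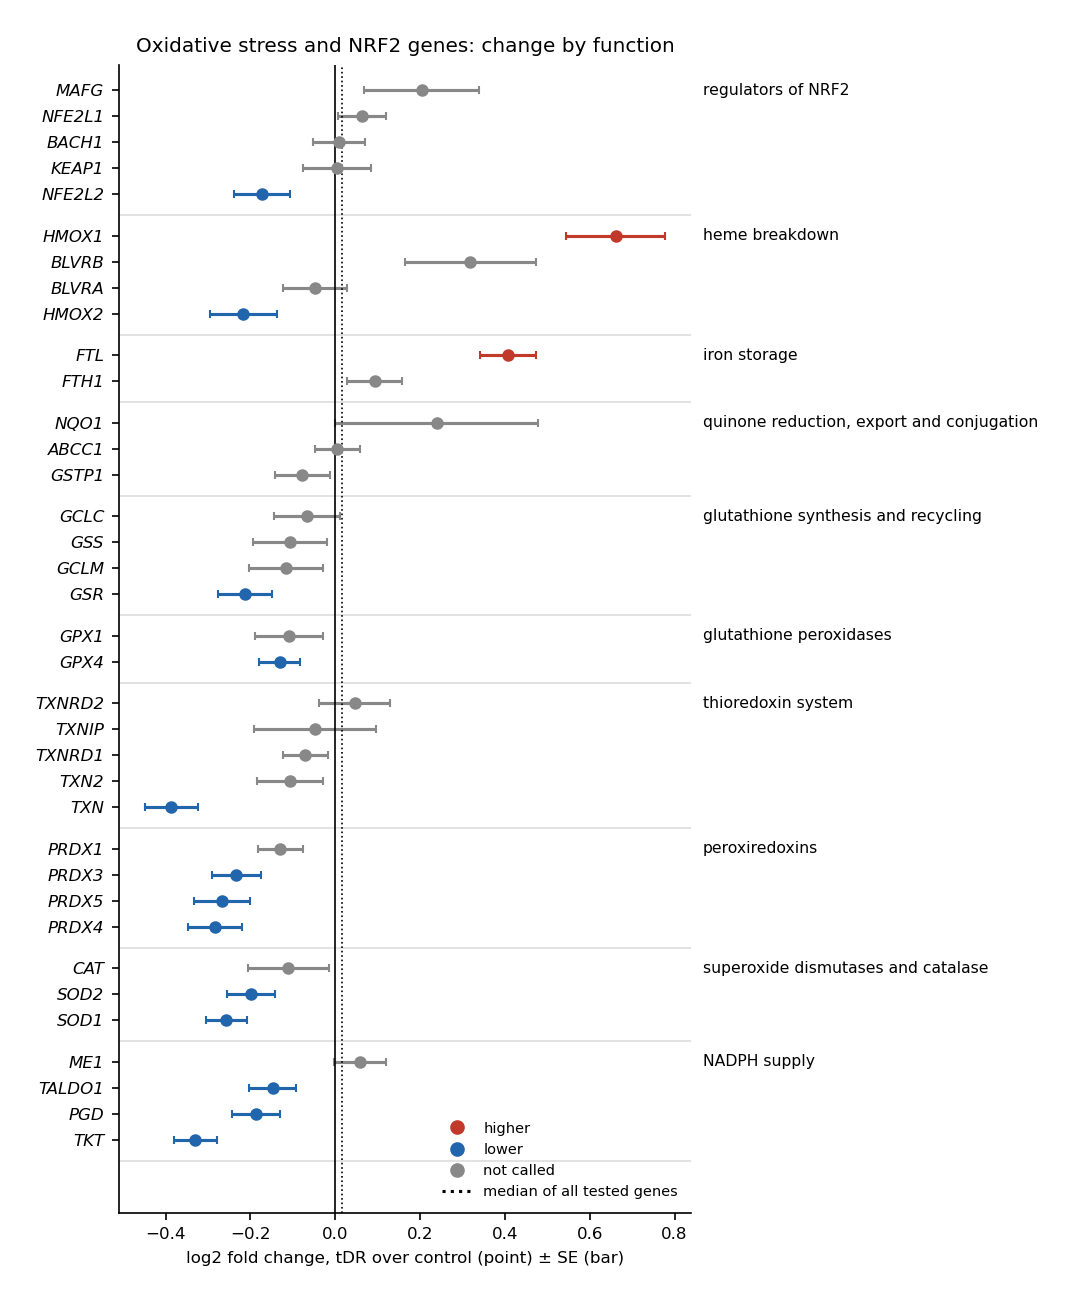
Log2 fold change of tDR over control (x axis) for the 36 tested members, ordered by function; points are estimates, bars are SE, colours show the call, and the dotted line is the median of all tested genes. HMOX1 and FTL stand to the right, and the called peroxiredoxin, superoxide dismutase and pentose phosphate genes stand to the left of 0.

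Total counts ran from 5848305 to 9237986 in the tDR libraries and from 6536554 to 10557740 in the control libraries. Counts over 381 olfactory receptor genes, which serve as an estimate of background, made up 58.0 to 65.0 CPM in tDR libraries and 33.7 to 44.4 CPM in control libraries, and their part in the results was not tested beyond the subtraction given above. The vimentin gene VIM and the neurofilament gene NEFM, both known in HEK293 cells, stood at 159 to 164 and 167 to 188 CPM in tDR libraries and at 139 to 158 and 206 to 239 CPM in control libraries. The CPM of the olfactory receptor genes and of all markers here are scaled by total counts alone. The fold changes use TMM factors, so the ranges and the fold changes are on different scales. Of 7 such markers KRT8 (0.64) and PAX2 (0.44) were called higher on the log2 scale, NEFL (-0.46) and NEFM (-0.41) lower, and VIM (0.03), KRT18 (0.13) and LHX1 (-0.38) did not pass. The part of these shifts in the results was not tested. The albumin, hemoglobin and uromodulin genes ALB, HBB and UMOD reached at most 0.866 CPM. The leukocyte marker PTPRC stood at 2.74 to 4.39 CPM in tDR libraries and 1.71 to 3.79 CPM in control libraries, the endothelial marker PECAM1 at 3.86 to 4.66 and 0.83 to 1.84 CPM, and the fibroblast marker COL1A2 at 0.108 to 1.54 and 0.189 to 1.07 CPM. PECAM1 was called higher (log2 fold change 1.63), PTPRC (0.485) did not pass, and COL1A2 was left out by the filter on low counts. The part of these low counts and of the PECAM1 shift in the results was not tested. In bulk RNA, fewer cells with a transcript and less of it per cell cannot be told apart.

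Among the 5 regulators NFE2L2 fell and the other 4 did not pass. NFE2L2 stood at 72.0, 75.6, 78.7 and 71.9 CPM in tDR replicates 1, 2, 3 and 4, against 85.1, 79.3, 83.9 and 87.4 CPM in control replicates 1, 2, 3 and 4. The groups did not overlap, although the highest tDR library and the lowest control library nearly met. Its log2 fold change was -0.17 ± 0.066 (SE; edgeR's adjusted p = 0.0476), and the adjusted p ranged from 0.0123 to 0.345 over the alternatives. The call ended without control replicate 1 (-0.17), 3 (-0.19) or 4 (-0.16), without tDR replicate 1 (-0.17), 2 (-0.19) or 4 (-0.15), with library size alone (-0.09), with background subtracted (-0.15) and with the replicate block (-0.17). KEAP1 stood at 65.0, 52.2, 63.9 and 55.5 CPM with the tDR and at 49.3, 63.5, 61.7 and 61.2 CPM in controls, so the ranges overlapped widely (log2 fold change 0.00 ± 0.081, SE; edgeR's adjusted p = 0.979). BACH1 averaged 124 ± 8.64 CPM with the tDR and 123 ± 12.3 CPM in controls (SD, n = 4 each), and NFE2L1, which encodes the related factor NRF1 that controls proteasome genes, averaged 126 ± 2.61 and 120.3 ± 4.58 CPM. MAFG, a small MAF partner of NRF2, was the rarest regulator, at 16.2 ± 1.48 CPM with the tDR and 14.2 ± 1.04 CPM in controls (log2 fold change 0.20; edgeR's adjusted p = 0.282).

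The binding element of NRF2 was looked for as TGACNNNGC on both strands of RefSeq promoter windows (build GRCh38.p14), each running from 250 bases before to 50 bases after a gene's start. Windows were found for 30 of the 39 members, and 6 of the 30 held a match, beside 16.1% of all 27305 genes with a window. The members without a window are ABCC1, FTH1, GSR, GSS, HMOX1, PRDX1, PRDX6, SOD1 and TXN2. Of the 6 genes with a match only PGD was called in the expression test, and it was lower. One match before each start is printed here to show which members carry the letters of the element near the start. Each is read along the gene's own strand with the match in capitals, and a match on the opposite strand appears as GCNNNGTCA.
GCLM chr1:93909440-93909480, minus strand: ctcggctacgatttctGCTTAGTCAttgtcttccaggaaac
ME1 chr6:83431164-83431204, minus strand: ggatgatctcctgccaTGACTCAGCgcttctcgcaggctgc
GSTP1 chr11:67583730-67583770, plus strand: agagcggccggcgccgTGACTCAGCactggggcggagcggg
TXNRD1 chr12:104215664-104215704, plus strand: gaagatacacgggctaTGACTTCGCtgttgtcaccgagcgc
TXNRD1, a second start, chr12:104286914-104286954, plus strand: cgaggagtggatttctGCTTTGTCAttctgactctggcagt
KEAP1 chr19:10502778-10502818, minus strand: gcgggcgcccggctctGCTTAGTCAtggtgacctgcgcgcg
PGD chr1:10398847-10398887, plus strand: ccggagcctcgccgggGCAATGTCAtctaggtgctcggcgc
The matches of ME1 and GSTP1 overlap the letters TGANTCA, the motif of AP-1 factors, so the letters alone do not tell the families apart. KEAP1, ME1 and TXNRD1 each held 1 further match. A match is a description of the sequence and not a measured binding site.

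Heme oxygenase cuts heme into biliverdin, iron and carbon monoxide, and its inducible and constitutive forms moved in opposite directions. HMOX1, the inducible form, stood at 28.95, 25.2, 25.0 and 26.8 CPM in tDR replicates 1, 2, 3 and 4, against 14.5, 16.5, 18.1 and 18.0 CPM in control replicates 1, 2, 3 and 4. Each tDR library lay above each control library. The fold was 1.58 (log2 fold change 0.66 ± 0.117, SE; edgeR's adjusted p = 2.17e-05), from 114 to 256 counts per library, and it ranged from 0.59 to 0.74 on the log2 scale over the alternatives. HMOX2, the constitutive form, stood at 60.3, 50.4, 55.9 and 49.5 CPM with the tDR and at 62.5, 69.0, 55.6 and 62.2 CPM in controls. These ranges overlapped through tDR replicates 1 and 3 and control replicate 3 (log2 fold change -0.22 ± 0.079, SE; edgeR's adjusted p = 0.0363). The HMOX2 call ended without control replicate 2 (-0.18), tDR replicate 2 (-0.19) or tDR replicate 4 (-0.17), with the replicate block (-0.21), with library size alone (-0.13) and with background subtracted (-0.17). GENCODE 29 places NMRAL1 over part of HMOX2 on the opposite strand, with 2264 counts in all against 3745 for HMOX2, and the part of shared reads was not tested. Per kb of exonic length, a scale free of library scaling when taken as a ratio, HMOX1 over HMOX2 was 0.758, 0.789, 0.706 and 0.855 in tDR replicates 1, 2, 3 and 4, and 0.365, 0.378, 0.514 and 0.456 in control replicates 1, 2, 3 and 4. This ratio, and those of FTL to FTH1 and TXN to TXN2 below, were chosen after their values were seen and are given without a test. Biliverdin is reduced to bilirubin by BLVRA and BLVRB. BLVRA averaged 56.5 ± 1.12 CPM with the tDR and 58.4 ± 4.26 CPM in controls, and BLVRB 14.1 ± 2.75 and 11.4 ± 1.55 CPM (SD, n = 4 each), and neither passed (log2 fold changes -0.05 and 0.32; edgeR's adjusted p = 0.694 and 0.127).

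Ferritin stores iron in a shell of light and heavy chains. FTL, the light chain (chromosome 19, 48965301 to 48966878 on GRCh38), stood at 99.2, 92.6, 98.1 and 88.7 CPM in tDR replicates 1, 2, 3 and 4, against 73.1, 67.6, 67.5 and 75.6 CPM in control replicates 1, 2, 3 and 4. All tDR libraries were above all control libraries, and the fold was 1.33 (log2 fold change 0.41 ± 0.066, SE; edgeR's adjusted p = 3.63e-06). The value was 0.30 when gene length and GC were corrected for and 0.49 with library size alone, the extremes of its alternatives. FTH1, the heavy chain, stood at 112, 112, 115 and 109 CPM with the tDR and at 87.0, 112, 111 and 111 CPM in controls. Control replicate 1 lay apart from its group, and the gene did not pass (log2 fold change 0.09 ± 0.064, SE; edgeR's adjusted p = 0.303). The ratio of FTL to FTH1 per kb was 1.88 to 2.05 in tDR libraries and 1.39 to 1.94 in control libraries, where control replicate 1 held the 1.94 and the other 3 lay between 1.39 and 1.58. Both genes have many processed pseudogenes. The table lists 16 pseudogene rows named for FTL with 53 counts in all and 25 for FTH1 with 58, beside 5281 and 6948 counts for the genes themselves, and the handling of reads matching more than 1 copy is not stated in the sources used here. Ferritin mRNA is also controlled in translation by an iron-responsive element near its 5' end, so its RNA level does not give the protein level. The hairpin loop of that element is in capitals in the RefSeq start of FTL (GRCh38.p14, bases 25 to 50 of the transcript):
FTL chr19:48965333-48965358, plus strand: gtctcttgcttcaaCAGTGTttggac

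Of the 3 genes for quinone reduction, export and conjugation none passed (edgeR's adjusted p = 0.5, 0.96 and 0.403 for NQO1, ABCC1 and GSTP1). NQO1, the quinone reductase often used as a reporter of NRF2, was the lowest of the tested members, with 19 to 65 counts per library. Its level was 3.22, 6.16, 8.42 and 5.87 CPM in tDR replicates 1, 2, 3 and 4, against 5.15, 5.50, 3.50 and 5.89 CPM in control replicates 1, 2, 3 and 4. The tDR values spread more widely than the difference between the group means (log2 fold change 0.24 ± 0.238, SE). With this SE a change of the size seen for FTL was not detectable in NQO1 at this depth. ABCC1, an exporter of glutathione conjugates, averaged 167 ± 4.03 CPM with the tDR and 167 ± 11.3 CPM in controls (log2 fold change 0.00 ± 0.054), and GSTP1, a glutathione transferase, 98.4 ± 5.94 and 103 ± 9.45 CPM (-0.08 ± 0.064; SD and SE, n = 4 each).

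Glutathione is made by the ligase of GCLC and GCLM and then by GSS, and its oxidized form is recycled by GSR. The 3 genes of synthesis did not pass, with log2 fold changes of -0.07, -0.12 and -0.11 for GCLC, GCLM and GSS (edgeR's adjusted p = 0.568, 0.35 and 0.393). GCLM stood at 36.9, 41.9, 36.7 and 37.3 CPM with the tDR and at 42.1, 39.5, 41.3 and 42.5 CPM in controls, and the overlap came from tDR replicate 2. GSR fell. It stood at 81.6, 83.5, 77.5 and 80.1 CPM in tDR libraries against 96.1, 87.5, 91.4 and 98.2 CPM in control libraries. The groups did not overlap (log2 fold change -0.21 ± 0.064, SE; edgeR's adjusted p = 0.0104), and the call held without each single library but ended with library size alone (-0.13) and with background subtracted (-0.17). The selenoprotein GPX4, which reduces lipid peroxides, stood at 228, 225, 213 and 231 CPM with the tDR and at 249.7, 253, 236 and 244 CPM in controls. The groups lay close but apart (log2 fold change -0.13 ± 0.049, SE; edgeR's adjusted p = 0.0425). The GPX4 call ended without control replicate 2 (-0.13) or 4 (-0.15), without tDR replicate 2 (-0.14), 3 (-0.11) or 4 (-0.15), with library size alone (-0.05) and with background subtracted (-0.08). GPX1, which reduces hydrogen peroxide, averaged 57.5 ± 5.11 CPM with the tDR and 62.2 ± 6.76 CPM in controls (log2 fold change -0.11 ± 0.079; edgeR's adjusted p = 0.33).

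Thioredoxin returns oxidized peroxiredoxins to their active state and is itself reduced by thioredoxin reductase. TXN, the cytosolic form, had the most negative log2 fold change of the 36 tested members. It stood at 104, 90.4, 112 and 100.1 CPM in tDR replicates 1, 2, 3 and 4, against 138, 120.2, 142 and 133 CPM in control replicates 1, 2, 3 and 4. No tDR library reached a control library (log2 fold change -0.39 ± 0.062, SE; edgeR's adjusted p = 3.63e-06), and the value ranged from -0.46 to -0.30 over the alternatives. The reductase TXNRD1 stood at 168, 181, 167 and 172 CPM with the tDR and at 197, 165, 181 and 181 CPM in controls, with overlapping ranges (log2 fold change -0.07 ± 0.054, SE; edgeR's adjusted p = 0.361). The mitochondrial TXN2 (log2 fold change -0.11) and TXNRD2 (0.05) and the thioredoxin inhibitor TXNIP (-0.05) did not pass either. Per kb of exonic length TXN over TXN2 was 2.94, 2.52, 2.95 and 3.31 in tDR replicates 1, 2, 3 and 4, and 4.02, 3.46, 3.80 and 3.07 in control replicates 1, 2, 3 and 4, so tDR replicate 4 lay above control replicate 4.

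Peroxiredoxins had the lowest median of the function groups with more than 2 tested genes, -0.25 over 4 genes. PRDX3, PRDX4 and PRDX5 fell and PRDX1 did not pass. PRDX4, the form of the endoplasmic reticulum, stood at 84.1, 93.1, 84.9 and 77.4 CPM with the tDR and at 106, 105, 101 and 100.2 CPM in controls (log2 fold change -0.28 ± 0.063, SE; edgeR's adjusted p = 0.000573). PRDX5, found in mitochondria and peroxisomes, stood at 80.1, 77.4, 79.2 and 66.3 CPM with the tDR and at 89.3, 88.9, 90.4 and 94.2 CPM in controls (-0.27 ± 0.067, adjusted p = 0.00204 by edgeR). The mitochondrial PRDX3 stood at 103, 118, 111 and 117 CPM with the tDR and at 124, 136, 135 and 134 CPM in controls (-0.23 ± 0.058, adjusted p = 0.00203 by edgeR). In these 3 genes every tDR library was below every control library. The PRDX3 call ended with library size alone (-0.15). PRDX1, a cytosolic form, stood at 225, 234, 228 and 231 CPM with the tDR and at 217, 260.4, 271 and 259 CPM in controls. Its tDR libraries lay close together, and control replicate 1 fell below them (log2 fold change -0.13 ± 0.053, SE; edgeR's adjusted p = 0.0637). Without control replicate 1 PRDX1 was at -0.20 and passed, and it also passed with median-of-ratios factors (-0.14), with no filter on low counts (-0.16) and when gene length and GC were corrected for (-0.20).

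PRDX2, PRDX6 and SRXN1, the sulfiredoxin gene that restores overoxidized peroxiredoxins, were listed at 0 counts in all 8 libraries. So were genes that most cells use, such as PCBP1 and TXNDC5, and 2546 of the 19840 rows annotated as protein coding. The zeros therefore set no limit on the level of these RNAs, and their cause was not tested. GENCODE 29 places HOOK2 over part of PRDX2 on the same strand, with 1329 counts in all, places AL121758.1 over part of SRXN1 on the same strand, with 104 counts, and places no other counted gene over PRDX6.

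Superoxide dismutases turn superoxide into hydrogen peroxide, which catalase splits. SOD1, the cytosolic copper and zinc enzyme, stood at 297, 276, 282 and 254 CPM in tDR replicates 1, 2, 3 and 4, against 341, 315, 335 and 331 CPM in control replicates 1, 2, 3 and 4. The groups did not overlap (log2 fold change -0.26 ± 0.049, SE; edgeR's adjusted p = 6.63e-05). SOD2, the manganese enzyme of mitochondria, stood at 124, 113, 130.4 and 125 CPM with the tDR and at 142, 146, 133 and 143 CPM in controls. The groups did not overlap (log2 fold change -0.20 ± 0.057, SE; edgeR's adjusted p = 0.00747), and the call ended without tDR replicate 2 (-0.16), with library size alone (-0.11) and with background subtracted (-0.15). CAT, for catalase, averaged 31.7 ± 1.61 CPM with the tDR and 34.1 ± 1.99 CPM in controls (SD, n = 4 each) and did not pass (log2 fold change -0.11; edgeR's adjusted p = 0.422).

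Of the 4 genes for NADPH, those of the pentose phosphate pathway fell and the malic enzyme gene ME1 did not pass. TKT, for transketolase, had the smallest p of all members. It stood at 273, 249, 243 and 244 CPM in tDR replicates 1, 2, 3 and 4, against 288, 329.8, 316 and 332 CPM in control replicates 1, 2, 3 and 4, with every tDR library below every control library (log2 fold change -0.33 ± 0.050, SE; edgeR's adjusted p = 1.2e-06). PGD, which makes NADPH from 6-phosphogluconate, stood at 122, 114, 116 and 121 CPM with the tDR and at 136, 139, 127 and 135 CPM in controls (-0.19 ± 0.056, adjusted p = 0.011 by edgeR). The PGD call ended with library size alone (-0.10) and with background subtracted (-0.13). TALDO1, for transaldolase, stood at 133, 143, 134 and 139 CPM with the tDR and at 138, 162, 149.5 and 157 CPM in controls, where control replicate 1 lay among the tDR libraries (-0.15 ± 0.056, adjusted p = 0.0461 by edgeR). The TALDO1 call ended without control replicate 2 (-0.12) or 4 (-0.14), without tDR replicate 1 (-0.14), 3 (-0.14) or 4 (-0.15), with library size alone (-0.06) and with background subtracted (-0.09). ME1 stood at 93.1, 99.97, 94.0 and 95.1 CPM with the tDR and at 93.6, 89.9, 94.7 and 89.2 CPM in controls (log2 fold change 0.06; edgeR's adjusted p = 0.522).

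**Figure D3:**
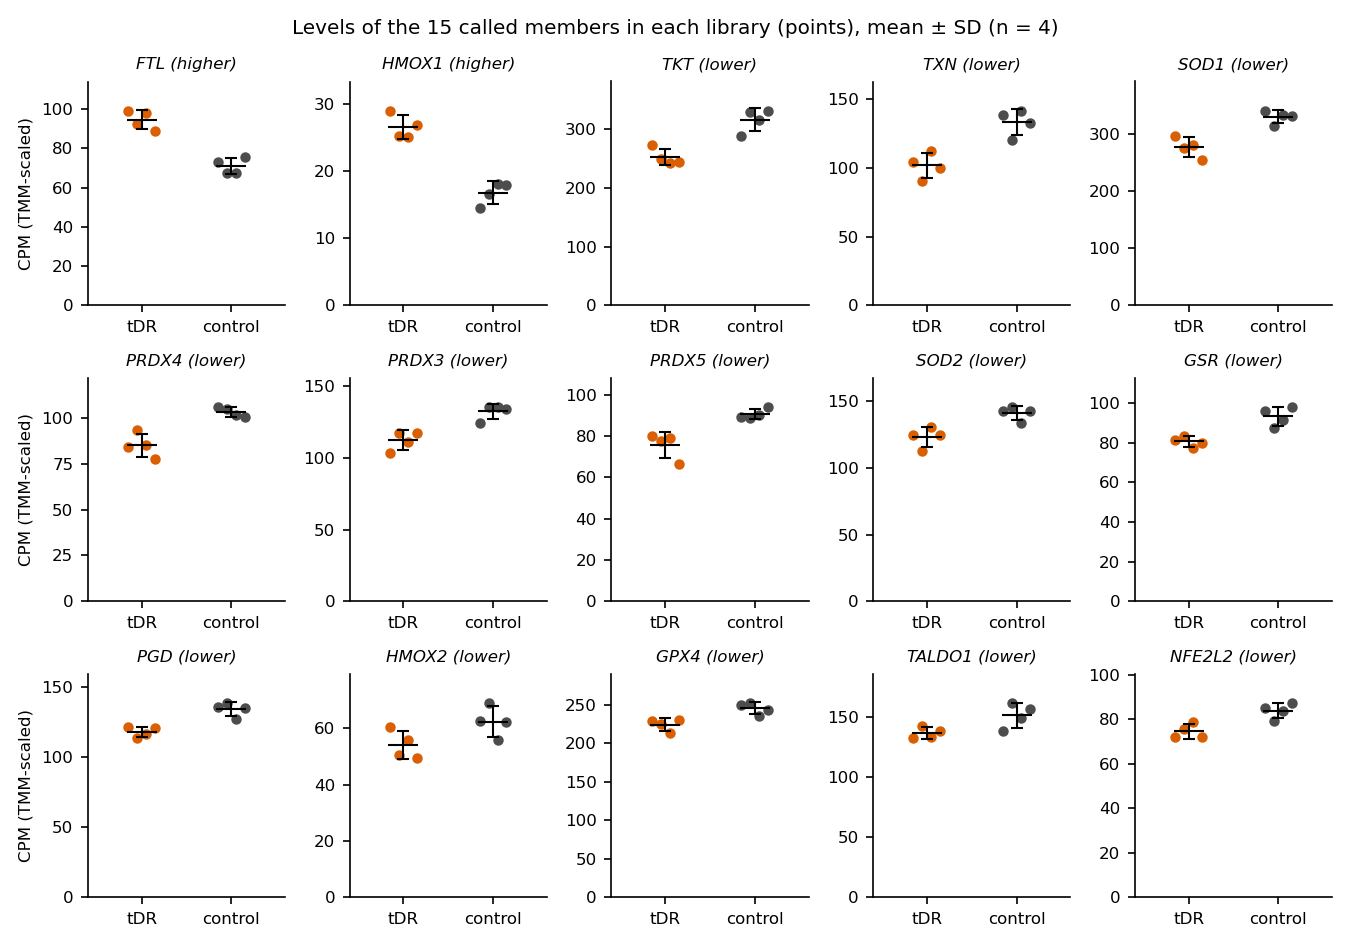
Level of each of the 15 called members (y axis, CPM with TMM-scaled library sizes) in the 4 tDR libraries (orange, left) and the 4 control libraries (grey, right); points are libraries, and bars are mean ± SD. The groups are apart in 13 of the panels, with HMOX1 at 26.5 ± 1.83 against 16.8 ± 1.70 CPM, and overlap in those of HMOX2 and TALDO1.

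Between genes, levels can be compared only per length. Divided by exonic length, the highest members were PRDX1 at 151 CPM per kb with the tDR and 165 CPM per kb in controls, SOD1 at 137 and 164, GPX4 at 111 and 122, FTL at 108 and 80.8, TXN at 89.2 and 117, and PRDX5 at 84.8 and 102 CPM per kb. FTL thus passed TXN and PRDX5 in the tDR group, while in controls it stood below both. The lowest were NQO1 at 1.82 and 1.54, MAFG at 3.11 and 2.72, and TXNIP at 3.63 and 3.75 CPM per kb. Exonic length here is the union of all GENCODE 29 transcripts, which understates genes with many long transcripts.

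The members differed in how firmly their calls held. Of the 15 called members 7 kept their call under all 17 alternatives and 8 lost it under at least 1, and 10 kept it when each library was left out in turn. None of the 15 changed sign. Of the 21 uncalled members 5 were called under at least 1 alternative: PRDX1 and GPX1 lower, and NFE2L1, BLVRB and FTH1 higher, the last 3 with library size alone.

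**Figure D4:**
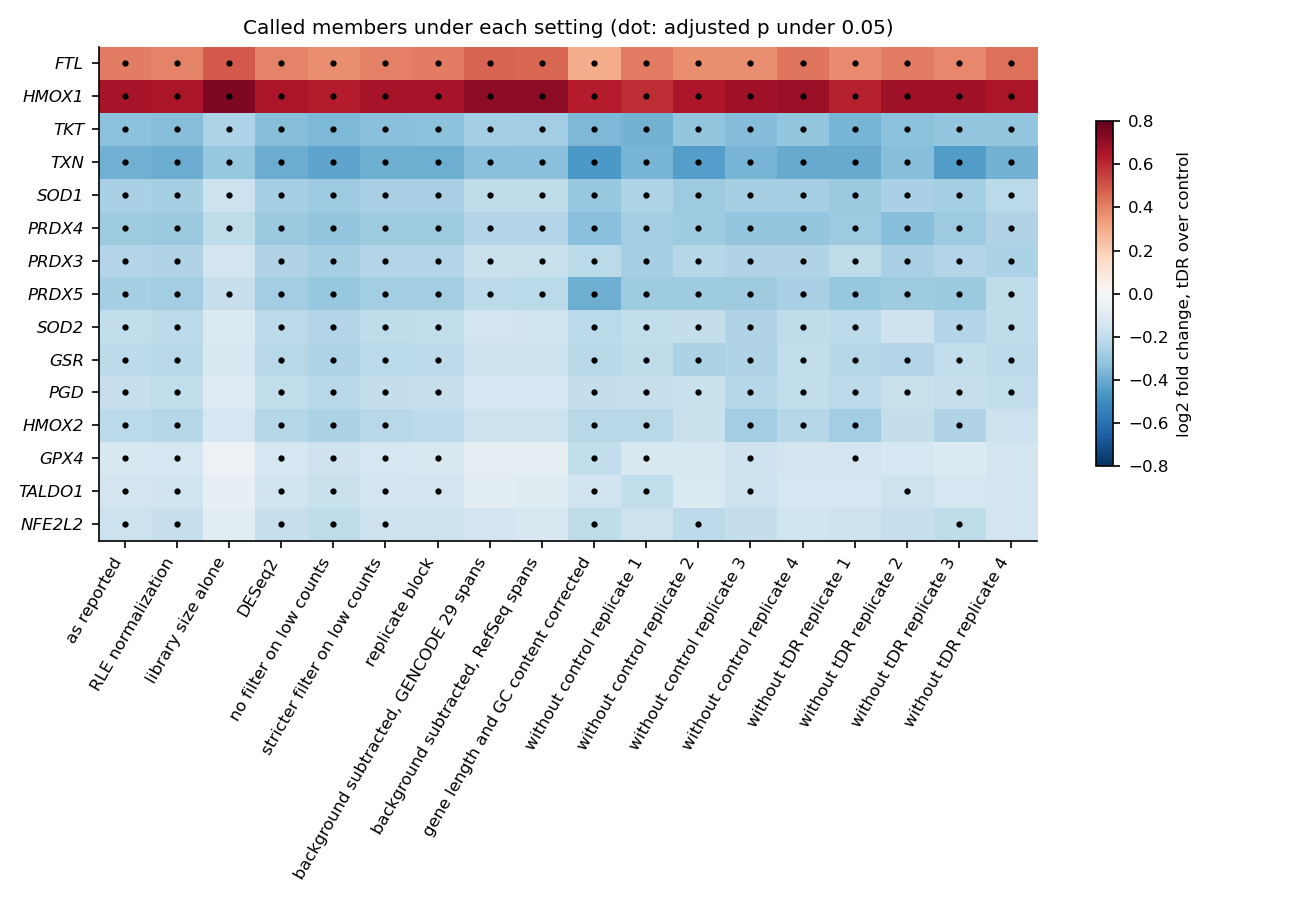
Log2 fold change of tDR over control (colour) of the 15 called members (rows) as reported and under each of the 17 alternatives (columns); a dot marks an adjusted p under 0.05. HMOX1, FTL, TKT, TXN, SOD1, PRDX4 and PRDX5 have a dot in every column, and the columns for library size alone and background subtraction have the fewest.

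Other genes of the same pathways gave 10 higher and 22 lower calls among 105 tested of 133 listed (9.52% and 21.0%), with a median log2 fold change of -0.08. Over all tested genes 12.8% were higher and 11.4% lower, with a median of 0.02. Over those with at least 10 CPM 9.34% were higher and 18.3% lower, with a median of -0.05. The list genes were not filtered at 10 CPM and include genes below it, such as HEPH and ABCC3. Neither set is therefore matched to the lists in level. With background subtracted 15 of these genes in all were called and with library size alone 19. Iron handling genes included lower calls in TFRC, the transferrin receptor (-0.21), NCOA4, which delivers ferritin to autophagy (-0.20), and PCBP2, an iron chaperone (-0.18). TFRC averaged 169 ± 10.3 CPM with the tDR and 196 ± 10.7 CPM in controls (SD, n = 4 each; edgeR's adjusted p = 0.00241). The TFRC call ended with library size alone (-0.13). Those of NCOA4 and PCBP2 ended under 4 and 6 of the 17 alternatives, among them library size alone (-0.11 and -0.09) and leaving out tDR replicate 4 (-0.17 and -0.16), and for PCBP2 also control replicate 4 (-0.16) or tDR replicate 3 (-0.16). HEPH, a ferroxidase gene, rose (0.98) but stood at only 2.90 ± 1.25 and 1.495 ± 0.292 CPM, its ranges overlapped, and its call ended under 10 of the 15 alternatives in which it was tested. The remaining 10 of 14 tested genes of this list did not pass, among them the iron sensors IREB2 (-0.12) and ACO1 (-0.11).

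Of 13 other genes of NRF2 regulation 4 rose and 2 fell. SQSTM1, whose product p62 binds KEAP1, rose by 0.35 and MAFK, a small MAF partner, by 0.46, with 15.6 ± 0.853 CPM with the tDR and 11.4 ± 1.01 CPM in controls; both calls held under all 17 alternatives. CUL3 (-0.17) and RBX1 (-0.24), which with KEAP1 form the ligase that marks NRF2 for degradation, fell, and the calls ended under 4 and 6 of 17 alternatives. SYVN1 (0.29) and BACH2 (0.17) were also called higher, and the calls ended under 8 and 16 of the 17. Of 20 tested glutathione genes 2 rose and 4 fell. GPX3, a secreted peroxidase, rose to 37.5 ± 3.90 CPM with the tDR, against 25.4 ± 2.24 CPM in controls (log2 fold change 0.56; edgeR's adjusted p = 2.6e-05), while GLO1 (-0.25), which detoxifies methylglyoxal, and the glutaredoxin genes GLRX3 (-0.25) and GLRX5 (-0.32) fell. With library size alone the GLRX3 (-0.17) and GLRX5 (-0.23) calls ended, and with background subtracted that of GLRX5 (-0.27). SLC7A11, the cystine carrier and a known NRF2 target, averaged 16.5 ± 2.76 and 15.7 ± 1.25 CPM and did not pass (edgeR's adjusted p = 0.731). SLC3A2, for the partner chain of that carrier, was the other glutathione gene called higher (log2 fold change 0.16, adjusted p = 0.0223 by edgeR). Its tDR libraries all lay above its control libraries, and its call ended under 6 of the 17 alternatives.

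Of 16 other tested thioredoxin and sulfur redox genes 2 rose and 2 fell: MSRA (0.46), which repairs oxidized methionine, and SESN2 (0.35), a stress-induced sestrin, were higher, and PARK7 (-0.23) and OXR1 (-0.15) lower. The OXR1 call ended under 10 of the 17 alternatives, including the replicate block (-0.15), library size alone (-0.07), a length and GC correction (-0.09) and leaving out control replicate 1, 3 or 4 or tDR replicate 2, 3 or 4, while those of MSRA, SESN2 and PARK7 held under all 17. For NADPH, 4 of 16 tested genes fell and none rose. These were MTHFD1 (-0.33) and MTHFD1L (-0.13) of folate metabolism, the isocitrate dehydrogenase gene IDH1 (-0.40) and RPIA (-0.33) of the pentose phosphate pathway. The call of MTHFD1L ended under 8 of the 17 alternatives, including leaving out control replicate 3 or 4 or tDR replicate 1, 2 or 3 (-0.15 to -0.12), and those of the others under none. Of 12 tested detoxification and export genes ABCC4 (-0.17), NQO2 (-0.27) and AKR1B1 (-0.17) fell and ABCC3 rose (1.23) at 2.93 ± 1.23 CPM with the tDR and 1.26 ± 0.652 CPM in controls, with overlapping ranges. The calls of ABCC4, NQO2 and AKR1B1 ended under 4, 8 and 7 of the 17 alternatives. Left-out libraries that ended them were tDR replicates 1 and 2 for ABCC4, control replicates 2 and 4 and tDR replicates 2, 3 and 4 for NQO2, and control replicates 2 and 3 and tDR replicates 1 and 4 for AKR1B1. The ABCC3 call ended under 3 of the 15 alternatives in which it was tested, without control replicate 2 (0.97), tDR replicate 3 (1.12) or tDR replicate 4 (0.98).

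**Figure D5:**
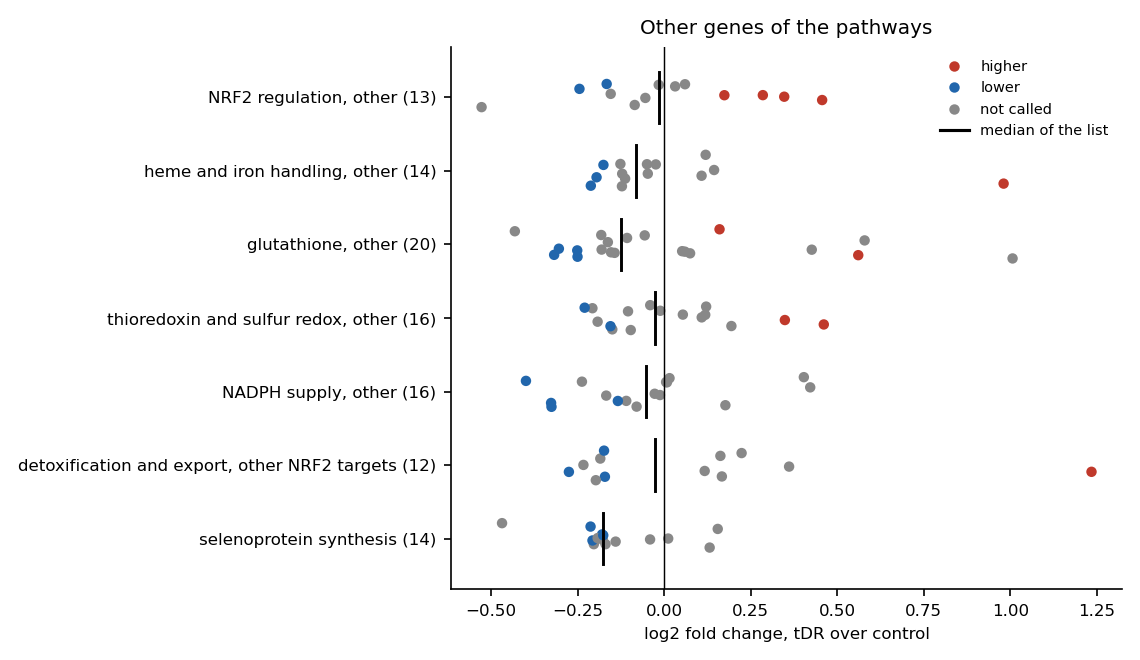
Log2 fold change of tDR over control (x axis) for the tested genes of 7 further lists of the same pathways (rows, number of genes in parentheses); points are genes coloured by call, spread vertically at random, and black bars are list medians. Medians lie between -0.18 and -0.02, and called genes are on both sides of 0 in 5 of the 7 lists.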

How the data were processed

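The deposited values are raw read counts for each gene in 1 table, not normalized by the authors; its columns carry the library names. TRIzol extraction and the SMARTer stranded Pico kit for total RNA were used, per the labels' protocols. Per the submitters' processing notes, the tools were STAR 2.7.8a, featureCounts 2.0.2, cutadapt 2.10, DESeq2 1.30.1 and FastQC 0.11.9, and the builds named are GRCh38.p13 and hg38. Strand setting, annotation release and the treatment of multi-mapping reads are not stated in the sources used here.

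Counts were tested with edgeR 4.0.16 (quasi-likelihood F test, TMM factors, edgeR's own filter on low counts) in R 4.3.3 over all 17184 genes that passed, with group as the only term and Benjamini-Hochberg adjustment. Levels are CPM with TMM-scaled library sizes, except those of the olfactory receptor genes and cell type markers, which use total counts alone. The SE is the log2 fold change divided by the square root of F. The steps were also run on simulated counts. The changes set into those counts were all larger than those of the lower members other than TXN. That run therefore does not speak to most of the lower calls, and its outcome is not given. Libraries of a group differed by more than counting noise (chi-square per degree of freedom 2.15 to 4.88). Alternatives were other scaling (median of ratios, library size alone), DESeq2 1.42.0, other filters on low counts, a replicate block, leaving out each library, subtraction of background estimated from olfactory receptor genes, and a length and GC correction. GENCODE 29 on GRCh38 gave positions and lengths.

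The members and lists were chosen with earlier results of these data known. By rule, all called members and, called or not, 8 regulators and targets (NFE2L2, KEAP1, HMOX1, NQO1, GCLM, TXNRD1, FTH1 and SOD1) have per-library values, as do PRDX1 and ME1, which were added after their values were seen. Up to 4 called genes of each other list are named by smallest p, and SYVN1, BACH2, IREB2, ACO1, SLC7A11 and SLC3A2 were added after their values were seen. Results that need items withheld for evaluation are not reported here.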

Additional observations from a re-analysis of the deposited data

Results flagged for a closer look

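In 72 sets of 4 libraries (36 tested members in 2 groups), 5 had 1 library far from the other 3 by Dixon's test of the gap; chance gives about 1 in 20 sets. Control replicate 1 was the low one in 3 of them. KEAP1 stood at 49.3 CPM in control replicate 1 and between 61.2 and 63.5 CPM in the other controls. FTH1 stood at 87.0 CPM there and between 110.7 and 112 CPM in the others. PRDX3 stood at 124 CPM there and between 134 and 136 CPM in the others. GCLM was high in tDR replicate 2, at 41.9 CPM against 36.7 to 37.3 CPM in the other tDR libraries. CAT was high in control replicate 4, at 37.1 CPM against 33.1 to 33.2 CPM in the other controls. Without control replicate 1 the members gave 2 higher and 13 lower calls, the same counts as with it. The genes were not all the same, since the NFE2L2 call ended and PRDX1 was called lower.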

How the results depend on the processing

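The 2 higher calls (HMOX1 and FTL) were counted under 16 of 17 alternatives and became 5 with library size alone. The 13 lower calls became 5 with library size alone and 6 with background subtracted, with either GENCODE 29 or RefSeq spans (RefSeq spans were chosen after seeing the data), and ranged from 9 to 15 under the others. The median log2 fold change of tested members was -0.11 as reported, -0.0235 with library size alone, -0.14 with no filter on low counts, -0.0529 and -0.0561 with background subtracted (GENCODE 29 and RefSeq spans), and -0.122 to -0.0762 when single libraries were left out. Of all genes, 4168 were called as reported and 2210 and 2346 with background subtracted. The called genes of the other pathway lists were 32 as reported, 19 with library size alone, 15 and 18 with background subtracted, and 20 to 30 when single libraries were left out, the fewest without tDR replicate 4 (20) and tDR replicate 2 (21). With the replicate block, although same-numbered libraries did not deviate together (correlations -0.03 to 0.07), 3874 genes were called, with 2 members higher and 11 lower, and the calls of NFE2L2 and HMOX2 ended. DESeq2 called 3744 genes, with 2 members higher and 13 lower. No called member changed sign, and 8 of 21 uncalled members did under at least 1 alternative. Scaling moved the median of all genes to 0.10 with library size alone. The causes were not tested. Depth limits the rare members, of which NQO1 had the fewest counts.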

Other observations

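Selenoproteins carry selenocysteine, which is inserted with its own set of factors, and GPX1, GPX4, TXNRD1 and TXNRD2 of the members are of this kind. Of 14 tested genes in a list of selenocysteine synthesis and some other selenoproteins 4 fell, none rose and 10 did not pass. Their median log2 fold change was -0.18. All but DIO1 of the 14 had at least 10 CPM. Over all tested genes at that level 18.3% were lower and the median was -0.05. Selenoproteins kept in other lists are outside this count. Among them GPX3 rose (0.56), and SELENOW (0.12), SELENOT (-0.19) and SELENOP (-0.21) did not pass. SECISBP2, which binds the selenocysteine insertion element, averaged 79.8 ± 6.45 CPM with the tDR and 91.8 ± 5.69 CPM in controls (SD, n = 4 each; log2 fold change -0.21; edgeR's adjusted p = 0.0173). SELENOF (-0.21), SELENOI (-0.18) and SEPHS1 (-0.18) were the other lower ones. The 4 calls ended under 5, 3, 8 and 7 of 17 alternatives for SECISBP2, SELENOF, SELENOI and SEPHS1.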
